A study of Gallus gallus with 6 samples.

Results

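The interleukin-1 (IL-1) family genes and the inflammasome genes described here were 10 symbols chosen by name: the cytokine genes IL1B and IL18, the antagonist gene IL1RN, the receptor genes IL1R1, IL1RAP, IL1R2, IL1RL1 and IL18R1, the sensor gene NLRP3 and the protease gene CASP1. Of these, 9 matched a row of the 27656 genes in the deposited table by gene name, and IL1RN was not analysed here. Expression was measured by RNA-seq in ileal cells of broiler chickens sorted by flow cytometry with KUL01, an antibody that is used to label chicken macrophages. The LPS+LR21 group (3 libraries) came from birds injected with lipopolysaccharide (LPS) and also given Lactobacillus reuteri by gavage, and the LPS group (3 libraries) came from birds that received the LPS injection without the bacterium. Every bird of both groups was thus LPS-injected, no uninjected group was analysed here, and strain, age, dose and time are not given in the sources used here. The LPS+LR21 libraries are called LR1_2, LR3 and LR4 after their columns, and the LPS libraries LPS1, LPS2 and LPS3. Whether LR1_2 pools more than 1 sample is not stated in the sources used here.

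IL-1 beta and IL-18 are made as precursors inside the cell. In mammals, sensors such as NLRP3 assemble an inflammasome that activates caspase-1, and caspase-1 then cleaves both cytokines. IL-1 beta signals through IL1R1 paired with the accessory protein IL1RAP, while IL1R2 binds the cytokine without signalling and so acts as a decoy. Macrophages and other myeloid cells are main sources of IL-1 beta in inflamed gut.

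Total counts lay between 31284679 and 45492503 per LPS+LR21 library and between 38492909 and 44786499 per LPS library, so that 3 counts corresponded to at most 0.0959 CPM (counts scaled to library size; counting error only). The 28 measured macrophage identity genes summed to 4894 to 11136 FPKM (fragments per kilobase of gene, scaled to library size) in the LPS+LR21 libraries and to 13691 to 17164 in the LPS libraries, and none was at 0 in every library. CD74 was the largest term of this sum, at 2483, 5248 and 3497 FPKM in LR1_2, LR3 and LR4 and 6138 to 7749 in the LPS libraries. CSF1R had 58.7, 164 and 92.4 FPKM in LR1_2, LR3 and LR4, against 284 to 346 in the LPS libraries. Transcripts of the macrophage list were thus present in every library, but the 32 measured epithelial markers were present too. Their summed level was 13828, 2775 and 8044 FPKM in LR1_2, LR3 and LR4, against 930 to 1663 FPKM in the LPS libraries. LR3 stood apart from its group: a chi-square comparison of counts, divided by its degrees of freedom, gave 506 and 326 for LR3 against LR1_2 and LR4, but 217, 186 and 156 for LR3 against LPS1, LPS2 and LPS3. In such bulk libraries fewer cells of a type and less RNA per cell cannot be told apart.

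The IL-1 genes split by direction. IL1B, both subunits of its receptor and the decoy receptor were at lower levels in every LPS+LR21 library than in any LPS library, whereas CASP1 was at a higher level in every LPS+LR21 library. For NLRP3 the groups overlapped. None of the 9 members, all of which were kept by the filter on low counts, passed the test over all genes (edgeR's quasi-likelihood test, Benjamini-Hochberg adjusted p under 0.05), in which 1.06% of 20745 genes were called, 0.974% as higher and 0.0819% as lower. At an unadjusted p under 0.05, 5 of the 9 members stood out, 4 lower and 1 higher, against 12.1% of all tested genes. The median log2 fold change (LPS+LR21 over LPS) was -1.26 over the 9 members and -0.14 over all tested genes.

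**Figure D1:**
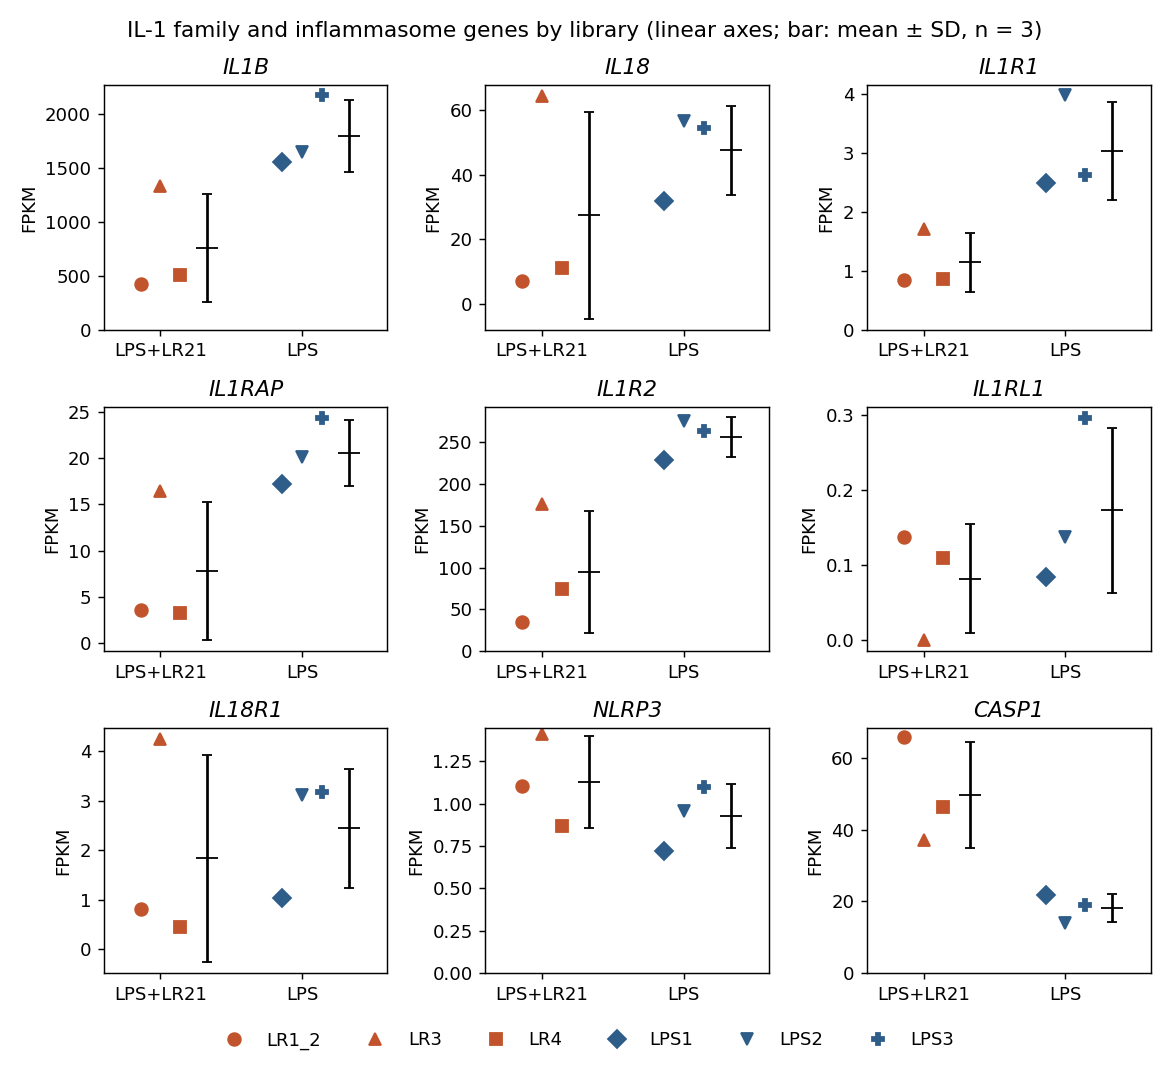
FPKM of the 9 measured genes in each library, on linear axes that differ between panels, with LPS+LR21 libraries in orange and LPS libraries in blue; bars beside the points show the mean and SD of 3 libraries. IL1B, IL1R1, IL1RAP and IL1R2 lie lower in all LPS+LR21 libraries than in any LPS library, CASP1 lies higher, and LR3 (triangle pointing up) is the LPS+LR21 library nearest to the LPS libraries for these 5 genes.

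Of the cytokine genes, IL1B was the more abundant, at 20.7 to 61.2 times the FPKM of IL18 in the LPS+LR21 libraries and 29.2 to 49.2 times in the LPS libraries. It is a gene of chromosome 22 (ENSGALG00010018460, 4457504 to 4459409, minus strand; positions as the deposited table lists them, with the build not given in the sources used here). IL1B had 428, 1332 and 509 FPKM in LR1_2, LR3 and LR4, against 1559, 1648 and 2173 FPKM in LPS1, LPS2 and LPS3. The groups did not overlap, with LR3 just under the lowest LPS library and the other two LPS+LR21 libraries far under it. By level per length IL1B ranked 96, 30 and 62 among all genes of LR1_2, LR3 and LR4, and 30, 25 and 21 in LPS1, LPS2 and LPS3. The fitted difference of -1.33 ± 0.51 (log2, SE) did not pass (adjusted p = 0.308 by edgeR).

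IL18 encodes a cytokine that drives interferon gamma production by T and NK cells (ENSGALG00010025073, chromosome 24, 6194724 to 6202122, plus strand). It had 6.99, 64.3 and 10.98 FPKM in LR1_2, LR3 and LR4, against 31.7, 56.5 and 54.5 FPKM in LPS1, LPS2 and LPS3. LR3 was the highest of all 6 libraries while LR1_2 and LR4 were the lowest, so the groups overlapped, and the fitted difference did not pass (-0.84 ± 0.76 log2, SE, adjusted p = 0.815 by edgeR). IL18 overlaps SDHD, a gene of mitochondrial complex II, on the opposite strand over 2554 bases, and the sources used here do not say whether counting used strand, so its values are uncertain. SDHD itself had 33226, 30609 and 22332 counts in LR1_2, LR3 and LR4, against 24306 to 32193 in the LPS libraries.

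Both subunits of the signalling IL-1 receptor were at lower levels in the LPS+LR21 libraries. IL1R1, the ligand-binding subunit (ENSGALG00010013715, chromosome 1, 133919751 to 133937543, plus strand), had 0.843, 1.71 and 0.868 FPKM in LR1_2, LR3 and LR4, against 2.48, 3.98 and 2.62 FPKM in LPS1, LPS2 and LPS3. The groups did not overlap, and LR3 lay between LR1_2 and LR4 below and the LPS libraries above. IL1R1 had 209 to 537 counts per LPS+LR21 library and 775 to 1179 per LPS library, and its log2 fold change of -1.50 ± 0.44 (SE) did not pass (adjusted p = 0.159 by edgeR), although it did with DESeq2 (adjusted p = 0.026). IL1RAP, the accessory subunit that IL1R1 and other receptors of the family share (ENSGALG00010014572, chromosome 9, 13547794 to 13589103, minus strand), had 3.64, 16.4 and 3.32 FPKM in LR1_2, LR3 and LR4, against 17.2, 20.1 and 24.4 FPKM in LPS1, LPS2 and LPS3. LR3 was only slightly under LPS1, and the difference of -1.46 ± 0.63 (log2, SE) did not pass (adjusted p = 0.394 by edgeR).

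The decoy receptor gene IL1R2 was much more abundant per length than IL1R1 in every library. IL1R2 (ENSGALG00010013619, chromosome 1, 133859295 to 133871411, plus strand) had 35.0, 175 and 74.1 FPKM in LR1_2, LR3 and LR4, against 229, 274 and 263 FPKM in LPS1, LPS2 and LPS3. The LPS libraries were close together and above all of the LPS+LR21 libraries, which spread widely. The fitted difference of -1.51 ± 0.55 (log2, SE) did not pass (adjusted p = 0.279 by edgeR).

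IL1R2, IL1R1, IL1RL1 and IL18R1 lie in that order on the plus strand of chromosome 1, between 133859295 and 134031087, with IL18RAP, the accessory subunit gene of the IL-18 receptor, after them. These neighbours differed widely in level, and all were fitted below 0. IL1RL1, known in mammals as the receptor for interleukin-33 (ENSGALG00010013797, chromosome 1, 133981720 to 134004949), was near the limit of detection, with 33, 0 and 18 counts in LR1_2, LR3 and LR4 and 18, 28 and 70 counts in LPS1, LPS2 and LPS3. The 0 counts in LR3 allow a level of up to 0.0736 CPM. Its fitted value of -1.26 ± 1.54 (log2, SE; adjusted p = 0.886 by edgeR) was smaller than its SE. IL18R1, the ligand-binding subunit of the IL-18 receptor (ENSGALG00010013836, chromosome 1, 134010515 to 134031087), had 0.811, 4.24 and 0.455 FPKM in LR1_2, LR3 and LR4, against 1.05, 3.11 and 3.17 FPKM in LPS1, LPS2 and LPS3. As for IL18, LR3 was the highest library, the groups overlapped, and the fitted difference was smaller than its SE (-0.44 ± 0.83 log2, SE, adjusted p = 0.935 by edgeR). IL18RAP had 0.917 ± 0.237 FPKM in the LPS+LR21 libraries and 1.15 ± 1.26 in the LPS libraries (SD, n = 3 each).

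Of the inflammasome genes, CASP1 was higher in the LPS+LR21 libraries. CASP1, which encodes the protease caspase-1 (ENSGALG00010029604, chromosome 19, 1181793 to 1186977, plus strand), had 65.7, 37.0 and 46.3 FPKM in LR1_2, LR3 and LR4, against 21.7, 13.8 and 18.9 FPKM in LPS1, LPS2 and LPS3. The groups did not overlap, and LR3 was the LPS+LR21 library nearest to the LPS values. The fitted difference of 1.31 ± 0.33 (log2, SE) had the smallest adjusted p among the members (0.108 by edgeR), and it did not pass. It passed with DESeq2 (adjusted p = 0.010) and with limma-trend on log2(FPKM + 0.1) (adjusted p = 0.039). Over all alternatives its adjusted p ranged between 0.0096 and 0.46, and its log2 fold change stayed above 0.

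NLRP3, which encodes the inflammasome sensor (ENSGALG00010022058, chromosome 5, 625267 to 650923, minus strand), had 1.10, 1.41 and 0.869 FPKM in LR1_2, LR3 and LR4, against 0.723, 0.957 and 1.10 FPKM in LPS1, LPS2 and LPS3. The groups overlapped, and the fitted difference was smaller than its SE (0.18 ± 0.55 log2, adjusted p = 0.964 by edgeR). NLRP3 overlaps 3 genes on the opposite strand, the longest overlap being 8652 bases with CEND1, which had 40 counts in LPS2 and none in the other libraries. The largest counts in the 3 overlapping genes were those of PDDC1, at 542 to 812 per LPS+LR21 library and 582 to 846 per LPS library, over 194 shared bases, so the NLRP3 values, at 130 to 275 counts per library, are uncertain.

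Counted over the 9 members, the groups did not overlap for 5, of which 4 were lower and 1 was higher in the LPS+LR21 libraries. Among the 20745 genes of the test, such separation was seen for 19.4%, with 7.1% lower and 12.3% higher. The 5 members were IL1B, IL1R1, IL1RAP, IL1R2 and CASP1.

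Calls among the members depended on LR3 as well as on the tool, filter and scaling, since with LR3 kept IL1R1 passed with DESeq2, and CASP1 with DESeq2, limma-trend, a filter at a mean of 5 FPKM and macrophage scaling. Without LR3, 6 of the 9 members passed (edgeR's quasi-likelihood test, adjusted p under 0.05), when 8.65% of 22486 genes were called, 4.83% as higher and 3.82% as lower. IL1B fell, with a log2 fold change of -2.06 (adjusted p = 0.0035), as did IL1R1 at -1.91 (0.018), IL1R2 at -2.40 (0.0022), IL1RAP at -2.66 (0.0020) and IL18 at -2.55 (0.0026), while CASP1 rose, at 1.56 (0.021). IL18R1, IL1RL1 and NLRP3 did not pass without LR3. By the chi-square comparison LR3 was the LPS+LR21 library most like the LPS group, so leaving it out widens the contrast. Calls without LR3, here and below, are thus descriptive and no further support for a difference. With limma-voom, which can give each library a quality weight, the same 6 members passed, when 9.43% of genes were called, 5.11% as higher and 4.32% as lower. The weights are not given here, so this may rest on the same library. With LR1_2, LR4 or any 1 of the LPS libraries left out, edgeR called 0 of the 9 members and 0 genes of the table.

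**Figure D2:**
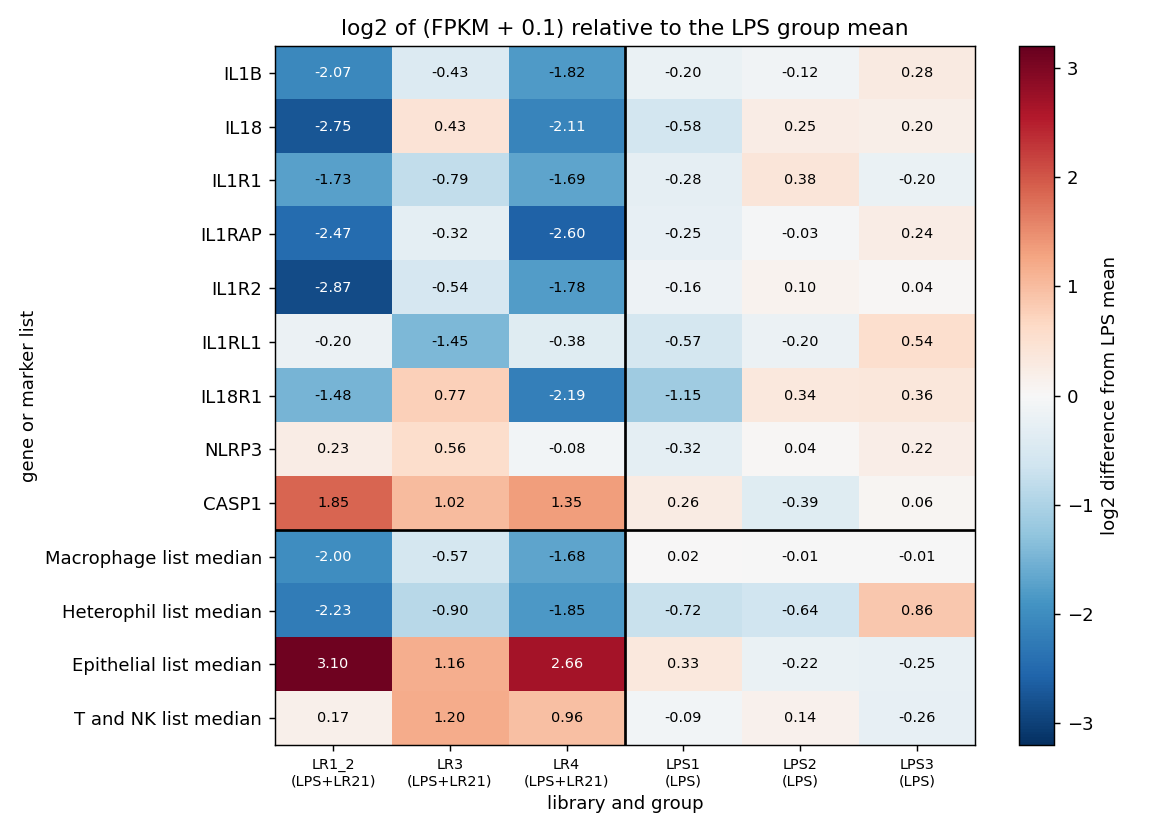
Log2 of FPKM + 0.1 in each library relative to the mean of the LPS libraries, for the 9 genes and, under the line, for the median gene of 4 marker lists; red is higher and blue is lower. IL1B is at -2.07, -0.43 and -1.82 in LR1_2, LR3 and LR4, and the macrophage list median is at -1.999, -0.57 and -1.68 in the same libraries.

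Macrophage and epithelial markers differed along with these genes. Median log2 fold changes were 0.21, 0.10 and -0.25 for B and plasma, dendritic and endothelial cell markers, with 0 called. Thrombocyte markers had -0.81 with 0 called, and fibroblast and smooth muscle markers had -0.79 with 3 called lower. Relative to the LPS mean, the median macrophage identity gene was at -1.999 in LR1_2, -0.57 in LR3 and -1.68 in LR4 (log2). LR3 was the least displaced, as it was for IL1B, IL1R1, IL1R2 and IL1RAP. Of 26 tested macrophage identity genes none was fitted above 0, and 1 passed. All 32 epithelial markers were fitted above 0 and 12 of them rose. Without LR3, the setting in which 6 members passed, 24 of the macrophage identity genes fell and 31 of the epithelial markers rose. The median epithelial marker was 3.10, 1.16 and 2.66 above the LPS mean in LR1_2, LR3 and LR4, and CASP1 had the same order at 1.85, 1.02 and 1.35 (log2). The part of either list in the members' differences was not tested.

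Heterophils, the chicken counterpart of neutrophils, are another myeloid source of IL-1 transcripts, and in mammals neutrophils carry much IL1R2. The 19 measured heterophil markers, less CATHB1, which has no FPKM value, summed to 247, 1177 and 172 FPKM in LR1_2, LR3 and LR4, against 1005, 1156 and 3428 FPKM in LPS1, LPS2 and LPS3. LPS3 thus had the highest sum, while the sums of LPS1 and LPS2 were under that of LR3. Of all 19 markers, with CATHB1 counted, 5, 4 and 3 had no count in LR1_2, LR3 and LR4. In LPS1, LPS2 and LPS3, 5, 5 and 1 had none. The defensin genes AVBD1, AVBD2 and AVBD7 had no count in LPS1 or LPS2 and 1.40, 2.90 and 3.17 FPKM in LPS3. They reached at most 1.02 FPKM in any LPS+LR21 library. The cathelicidin genes CATHL1 and CATHL2 had no count in LR1_2, and most of the sum came from EXFABP and CSF3R in every library. None of the 14 tested heterophil markers passed with LR3 kept, while 12 were fitted below 0 and 2 above (median log2 fold change -1.49). The 12 include TFIP11, at -0.0061 (log2), a gene not particular to heterophils, which also enters the sums and the median. Without LR3, where IL1B and IL1R2 fell, 4 of them fell too, namely CSF3R (adjusted p = 0.0029 by edgeR), MMP9 (0.011, also in the list of induced genes), EXFABP (0.013) and CATHL1 (0.029). CATHL1 had no count in LR1_2 or LR4 and 0.42, 0.18 and 2.03 FPKM in LPS1, LPS2 and LPS3, so its call rests on low values. CATHB1, which the main test did not keep, rose in that setting (log2 fold change 8.9985, adjusted p = 0.030 by edgeR). It had no count in any LPS library, so that value is not a measured fold. The part of these markers was not tested. T and NK cell markers, whose cells respond to IL-18, summed to 366 to 565 FPKM in the LPS+LR21 libraries and to 166 to 228 in the LPS libraries, with none of 17 tested genes passing. The 6 markers of mast cells and basophils, cells that carry the IL1RL1 protein in mammals, summed to 40.2 to 119 FPKM in the LPS+LR21 libraries and to 29.9 to 34.3 in the LPS libraries. HPGDS, a prostaglandin D synthase gene, was the 1 of the 6 that rose, at 106, 20.6 and 74.4 FPKM in LR1_2, LR3 and LR4, against 5.01 to 10.3 FPKM in the LPS libraries. It made up most of the sum in LR1_2 and LR4. MITF went the other way, at 10.2, 18.6 and 12.5 FPKM in LR1_2, LR3 and LR4, against 21.9 to 25.8 FPKM in the LPS libraries. Without LR3, MITF fell (log2 fold change -1.16, adjusted p = 0.027 by edgeR). KIT, the mast cell growth factor receptor gene, reached at most 0.663 FPKM. None of these 6 markers was at 0 in any library, and their part was not tested.

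Relative to the macrophage identity genes of the same library, IL1B overlapped between groups. The log2 ratio of IL1B to the mean macrophage identity gene was 4.28, 4.59 and 4.28 in LR1_2, LR3 and LR4, against 4.39, 4.42 and 4.73 in LPS1, LPS2 and LPS3. The groups overlapped, and the difference of -0.13 (4.38 ± 0.18 in the LPS+LR21 libraries, 4.51 ± 0.19 in the LPS libraries, SD) was smaller than the SD of either group (exact two-sided permutation p = 0.50, where the smallest possible with 3 against 3 is 0.10). With a pseudocount of 1 in place of 0.1 the IL1B difference was -0.22 (exact two-sided permutation p = 0.30). The macrophage mean also takes in genes near the floor, such as SLC11A1, at 2.13 FPKM in LPS3 and at most 0.027 in the other libraries. At the pseudocount of 0.1, IL1R1 and IL18 also overlapped between groups, with differences of -0.08 and -0.13. IL1R2 differed by -0.43, and that lay mostly in LR1_2, at 0.67 against 1.504 to 1.84 in the other 5 libraries. IL1RAP differed by -0.49, with LR1_2 and LR4 under every LPS library and LR3 level with the highest of them.

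On the same scale the inflammasome genes stood higher. Scaling the edgeR fit to the macrophage identity genes likewise raised the median of all genes. CASP1 was at 1.58, -0.58 and 0.83 in LR1_2, LR3 and LR4, against -1.77, -2.46 and -2.11 in LPS1, LPS2 and LPS3. NLRP3 was at -4.20, -5.19 and -4.75 in the LPS+LR21 libraries, against -6.50 to -6.10 in the LPS libraries. Neither gene overlapped between groups relative to the macrophage list. The share of all genes without overlap on this scale was not counted, so the separation is not shown to be particular to these genes. When the edgeR fit was scaled to the macrophage identity genes, CASP1 was the 1 member that passed (log2 fold change 3.01, adjusted p = 0.0096), when 19.4% of genes passed, nearly all as higher and 0.0145% as lower. That scaling placed the median of all genes at 1.47, against -0.14 in the TMM fit, so relative to the median gene CASP1 was still higher, NLRP3, at 1.64, was close to it, and IL1B, at -0.13, was lower.

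**Figure D3:**
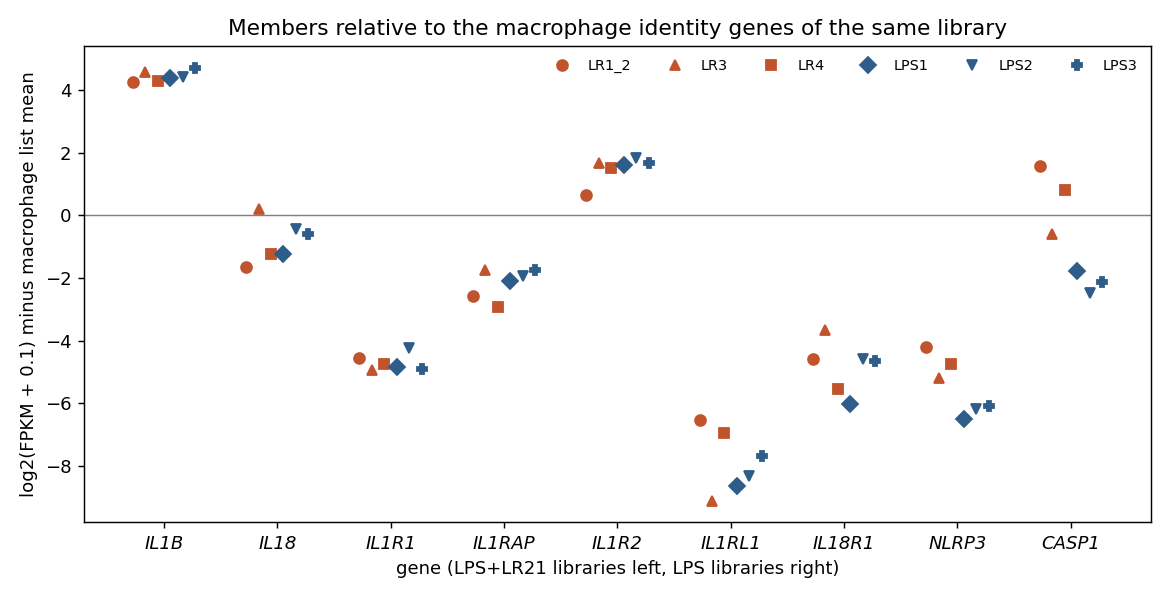
Log2 of FPKM + 0.1 of each gene minus the mean of the 28 macrophage identity genes in the same library; orange points (left in each gene) are LPS+LR21 libraries and blue points (right) are LPS libraries. IL1B spans 4.28 to 4.59 in the LPS+LR21 libraries and 4.39 to 4.73 in the LPS libraries, while CASP1 and NLRP3 lie higher in all LPS+LR21 libraries than in any LPS library. The share of all genes that do so on this scale was not counted.

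Ratios of genes within a library cancel the scaling between libraries, except for the effect of the added pseudocount. That effect is larger where a gene is low, as IL1R1 and NLRP3 were. The log2 ratio of the decoy receptor to the signalling receptor, IL1R2 to IL1R1, was 5.22, 6.60 and 6.26 in LR1_2, LR3 and LR4, against 6.47, 6.07 and 6.60 in LPS1, LPS2 and LPS3. The groups overlapped (difference -0.35, exact two-sided permutation p = 0.70). The difference turned to 0.05 without LR1_2, and was -0.79 with a pseudocount of 1 in place of 0.1 (exact two-sided permutation p = 0.20). The log2 ratio of CASP1 to NLRP3 was 5.77, 4.62 and 5.58 in LR1_2, LR3 and LR4, against 4.73, 3.72 and 3.99 in LPS1, LPS2 and LPS3. LR1_2 and LR4 were above all LPS libraries and LR3 was just under LPS1. The difference was 1.18 (5.32 ± 0.62 in the LPS+LR21 libraries, 4.15 ± 0.52 in the LPS libraries, SD, exact two-sided permutation p = 0.20). With a pseudocount of 1 in place of 0.1 it was 1.25 (exact two-sided permutation p = 0.10). That is the smallest p possible with 3 against 3, reached only when the groups do not overlap. The overlap of this ratio thus turned on the pseudocount.

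**Figure D4:**
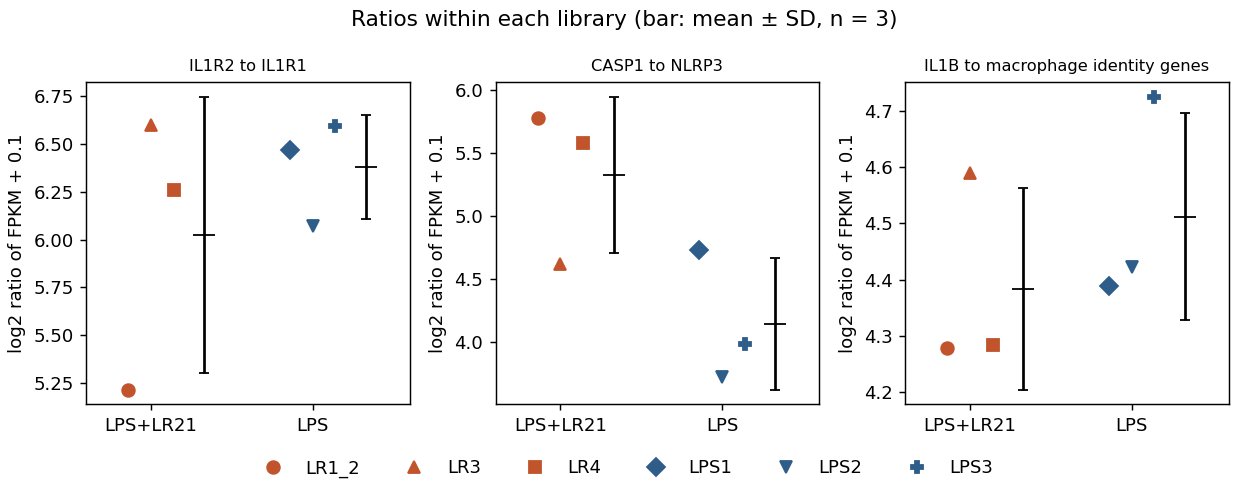
Log2 ratios of FPKM + 0.1 within each library, with LPS+LR21 libraries in orange and LPS libraries in blue, and bars for the mean and SD of 3 libraries; the 3 vertical axes differ and do not start at 0. The ratio of CASP1 to NLRP3 is highest in LR1_2 and LR4, at 5.77 and 5.58. All 3 ratios overlap between groups at this pseudocount, but CASP1 to NLRP3 does not at a pseudocount of 1.

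In the rest of the pathway no analysed gene was called by edgeR. By list, 4 genes were measured from 14 symbols, 12 from 24, 30 from 37 and 33 from 38. Symbols without a match, such as PYCARD, NLRP1, AIM2, GSDMD, IL1A, IL33, IRAK1 and RELA, were not analysed here. The counts and medians of the lists thus cover only part of the pathway. Of 79 further genes tested in 4 lists, 0 passed, 13 had an unadjusted p under 0.05 (against 12.1% of all tested genes), and 6 passed with DESeq2, when 4.91% of genes did (3.67% higher, 1.24% lower). That DESeq2 share is over 27478 genes, low-count genes included, whereas the 79 were all kept by the edgeR filter, so the shares are not fully alike. In the list of other IL-1 family genes, 2 of 4 were fitted above 0 and 2 below (median -0.01). SIGIRR, an inhibitory receptor of the family, had 37.7, 11.5 and 27.3 FPKM in LR1_2, LR3 and LR4, against 6.25, 6.52 and 2.64 FPKM in LPS1, LPS2 and LPS3. These groups did not overlap, and the fitted difference of 2.17 ± 0.49 (log2, SE) did not pass (adjusted p = 0.072 by edgeR). Without LR3, SIGIRR rose (log2 fold change 2.62, adjusted p = 0.0047 by edgeR). IL1RAPL1 and IL1RAPL2, homologues known from neurons, reached at most 0.459 and 0.594 FPKM in any library.

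Among 12 other inflammasome and release genes, 7 were fitted above 0 and 5 below (median 0.32). The pore-forming gasdermin genes GSDME and GSDMA had fitted differences of opposite sign. A further tested gene of the family, PJVK, reached at most 0.321 FPKM (0.67 ± 1.28 log2, SE, adjusted p = 0.938 by edgeR). GSDME, listed in the table under its older name DFNA5, had 15.1, 2.37 and 12.3 FPKM in LR1_2, LR3 and LR4, against 0.615, 1.74 and 1.62 FPKM in the LPS libraries (2.74 ± 0.66 log2, SE, adjusted p = 0.089 by edgeR). GSDMA had 4.79, 27.9 and 3.74 FPKM in LR1_2, LR3 and LR4, against 23.3, 18.4 and 31.5 FPKM in the LPS libraries, and its groups overlapped through LR3 (-1.06 ± 0.73 log2, SE, adjusted p = 0.699). P2RX7, an ATP-gated channel upstream of NLRP3 in mammals, and CARD9, an adaptor of C-type lectin receptors, had log2 fold changes of 0.80 and -1.35. Without LR3, GSDME rose at 3.29 (log2, adjusted p = 0.0032 by edgeR). GSDMA, CARD9 and NINJ1 fell at -2.61, -2.56 and -2.04 (log2, adjusted p = 0.0038, 0.0020 and 0.021 by edgeR). These were all the genes of the list called in that setting, when 3.82% of all genes were called lower and 4.83% higher.

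The 30 IL-1 receptor signalling genes were evenly split, 15 above 0 and 15 below (median -0.01). MYD88, the adaptor that carries the signal from the IL-1 receptor, had 6.64, 14.6 and 9.66 FPKM in LR1_2, LR3 and LR4, against 17.7, 16.8 and 18.9 FPKM in the LPS libraries. All LPS+LR21 libraries were under the LPS libraries, and the difference did not pass (-0.90 ± 0.36 log2, SE, adjusted p = 0.334 by edgeR). The transcription factor genes NFKB2 and FOS had log2 fold changes of -1.25 and -0.76. TRAF3IP2, an adaptor of the IL-17 receptor, had 1.82 (adjusted p = 0.167). Without LR3, 6 of these genes fell and TRAF3IP2 rose, when 3.82% of all genes were called lower and 4.83% higher.

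Of 33 genes known to be induced by IL-1 or NF-kB, 23 were fitted below 0 and 10 above (median -0.65). The name CCL4 stands for separate gene entries among the 33, fitted at -0.38 and 0.85 (log2), so it counts in both directions. CEBPB, a transcription factor gene, had 2.31, 9.38 and 2.84 FPKM in LR1_2, LR3 and LR4, against 14.1, 14.2 and 14.7 FPKM in the LPS libraries. The LPS libraries were close together and LR3 again lay between them and the other LPS+LR21 libraries (-1.64 ± 0.55 log2, SE, adjusted p = 0.229 by edgeR). The matrix metalloproteinase genes MMP10 and MMP1 had log2 fold changes of -1.79 and -2.76 (adjusted p = 0.112 and 0.202 by edgeR). MMP10 did not overlap between groups. MMP1 was low and did overlap, at 0.398, 0.119 and 0.981 FPKM in LR1_2, LR3 and LR4, against 4.80, 0.789 and 2.99 FPKM in the LPS libraries. The chemokine gene CCL5, at 1.09, was the induced gene of smallest p in the higher direction. Without LR3, 13 of the 33 fell and 0 rose, when 3.82% of all genes were called lower and 4.83% higher. Relative to the LPS mean, the median gene of the list was at -1.50, 0.26 and -1.19 (log2) in LR1_2, LR3 and LR4.

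**Figure D5:**
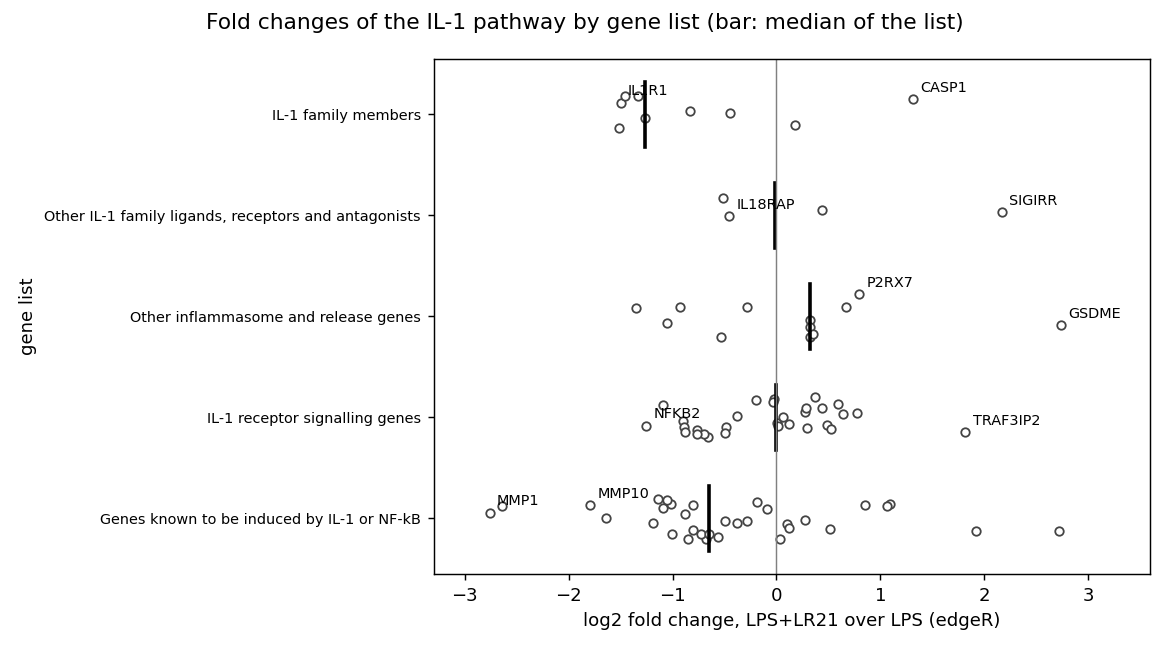
Log2 fold change (LPS+LR21 over LPS, edgeR) of each tested gene in the 9-gene set and in 4 further lists of the pathway, with a bar at each list's median and the 2 genes of smallest p named. Medians are -1.26, -0.01, 0.32, -0.01 and -0.65, and no plotted gene passed the test over all genes.

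The genes whose level across the 6 libraries was most like that of IL1B were sought among 2996 genes with a symbol and a mean of at least 10 FPKM, by the root-mean-square difference of centred log2(CPM + 0.1) values. The nearest 5 were PRNP (0.104), the prion protein gene, CSF3R (0.122), the receptor gene for granulocyte colony-stimulating factor, ANTXR2 (0.122), an anthrax toxin receptor gene, TLR2A (0.129), a toll-like receptor gene, and CTSC (0.140), a lysosomal protease gene. The median over all candidates was 0.967. CSF3R, for example, had 48.4, 190 and 61.1 FPKM in LR1_2, LR3 and LR4, against 215, 199 and 292 FPKM in LPS1, LPS2 and LPS3. For NLRP3 the nearest was CPSF6 (0.0521), an RNA cleavage factor gene, followed by PRPF38B (0.0835), UFM1 (0.0847), BLMH (0.0885) and SLC25A14 (0.108), against a median of 0.480.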

How the data were processed

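RNA-seq libraries were made from polyadenylated RNA, per the labels' protocols. Tools named in the submitters' processing notes, with no role stated, are cutadapt 1.9, HISAT2 2.0.4, StringTie 1.3.4d and edgeR. Per the file headers, the deposited table holds a whole-number count per gene and library, not normalized, and an FPKM value from the authors. Columns of the LPS+LR21 group (LR1_2, LR3, LR4) do not match the numbers 1 to 3 of the sample titles as a set, although LR3 carries a 3. They thus served as 3 replicates without identity, and 3 deposited FPKM columns of that group were left unused. FPKM in the text was instead computed for all 6 libraries from counts, library totals and a length per gene back-calculated from the LPS columns. Over 9889 genes with at least 100 counts it lay within 5% of the deposited LPS value in 100% of cases, and within 1% in 66.4%. The lengths came from those same LPS values, so this shows only that 1 length per gene served the LPS libraries. The computed LPS+LR21 values were not checked against deposited ones. No label states that each library is a different bird, so the p-values cover only the spread among these samples, which may be technical. Counts of every pair of libraries differed beyond sampling noise.

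The members and gene lists were chosen with earlier results of these data known. The main test was edgeR 4.0.16 in R 4.3.3 (TMM, filterByExpr, glmQLFit and glmQLFTest) over 20745 genes, two-sided. Its code was run on simulated counts with less spread between libraries than these data and larger changes than the members'. That run does not give the error rate or power of the test here. SE is the size of the log2 fold change over the root of F. Alternatives used limma 3.58.1, DESeq2 1.42.0, other scalings and filters, and left out each library. List symbols were matched by gene name or by RefSeq synonym (GRCg7b), without synonyms that belong to another gene. Every member was described. In each list the 4 genes of smallest p with a mean of at least 1 FPKM in either group were named, and other named genes were chosen after their values were seen.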

Additional observations from a re-analysis of the deposited data

How the results depend on the processing

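Of 122 member fold changes under alternatives, 118 kept their direction and 18 passed the threshold. Of these 18, 6 came without LR3 and 6 with library quality weights. Scaling to the macrophage identity genes turned IL18 to 0.021, IL18R1 to 0.46 and IL1RL1 to 0.69, none of which passed. The number of genes called, 219 in the main test, was 1349 with DESeq2 (74.7% higher, against 92.2%), 4025 scaled to the macrophage identity genes (99.9% higher), 442 at a mean of at least 5 FPKM, 441 and 330 with limma-trend at pseudocounts of 0.1 and 1, 1956 with library quality weights, and between 0 and 1945 with 1 library left out. Members called numbered 2 with DESeq2 (CASP1 and IL1R1), 1 (CASP1) with the macrophage scaling, with at least 5 FPKM and with limma-trend at either pseudocount, 6 with quality weights, and between 0 and 6 with 1 library left out. Of the 79 pathway genes, an analysis added after the data had been seen, 6 were called with DESeq2, 22 with the macrophage scaling, 1 with limma-trend at 0.1, 21 with quality weights, and between 0 and 25 with 1 library left out. The share of all genes called was 1.06% in the main test, 4.91% with DESeq2, 19.4% with the macrophage scaling, 9.43% with quality weights and 8.65% without LR3. For the filter at 5 FPKM and for limma-trend the share was not computed. Library totals and no filter on low counts called no member.

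With 1 library left out, the log2 fold change of IL18R1 ranged from -1.997 to 0.087 (without LR4) and that of IL18 from -2.55 to -0.35. The difference in the log2 ratio of IL1R2 to IL1R1 ranged from -0.64 (without LR3) to 0.051 (without LR1_2), and was -0.79 at a pseudocount of 1. That of IL1B to the macrophage identity genes ranged from -0.23 to -0.022 with 1 library left out, and was -0.22 at a pseudocount of 1. For CASP1 to NLRP3 it ranged from 0.95 (without LR1_2) to 1.53 (without LR3), and was 1.25 at a pseudocount of 1. DESeq2 gave no adjusted p for IL18 and IL1RL1. Apart from LR3, whose removal raised the counts, the cause of these shifts was not tested. The planned ratio of IL1RN to IL1B was not run, because IL1RN was not analysed here. No paired analysis was possible because no label states a pairing between the groups. Of the LPS+LR21 columns, moreover, only LR3 carries a number of the titles. Depth limits IL1RL1, with at most 70 counts per library.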
